A study of Mus musculus with 12 samples.

Results

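H3K9/14ac, histone H3 acetylated at lysine 9 or 14, was examined at 5362 short stretches of chromatin that lay inside protein-coding genes, away from the gene ends, and carried a peak in every ChIP library of the series. They were found by joining the overlapping or touching peaks of the 6 paired-end peak lists into 56643 regions on GRCm38. Of these, 20108 had a peak in all 6 libraries and 18887 of those were under 8000 bp wide. The 5362 kept were inside the span of a protein-coding gene and more than 2000 bp from every gene end, and are called gene-body regions below. The other shared narrow regions were 7116 at a single gene end, 2362 at neighbouring gene ends and 4047 between genes. The rule used the presence of a peak and its place, so a region that had lost its peak in any library was outside it, and the presence of a peak in all libraries is no result. The region just past the width limit, in Ptch1 (8025 bp), had mean heights over coverage of 102 in WT and 68.1 in KO. At the distance limit, the member closest to it lay 2001 bp from the nearest gene end, in Ap5b1 (47.3 in WT and 50.6 in KO), and the region just short of it lay 1996 bp away, in Sdcbp2 (16.8 and 8.88).

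The cells were mouse T helper 17 (Th17) cells of the strain C57BL/6, made by culturing naive T cells in polarizing medium for 3 days and restimulating them for 3 h with PMA and ionomycin while brefeldin A and monensin were present. The wild type (WT, 3 ChIP libraries) was compared with Slc2a3-fl/fl Cd4-cre (KO, 3 ChIP libraries), in which Cre under the Cd4 promoter deletes a floxed Slc2a3, the gene of the glucose transporter GLUT3, in T lineage cells. Whether the wild type carried Cre or the floxed allele, how many animals were used and whether libraries came from separate animals is not given in the labels, so p-values measure the spread between these libraries, which may be technical. Each sample received its own barcode in the nuclei and 6 samples shared an immunoprecipitation (the RELACS protocol). The 6 input libraries were not analysed here.

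Histone acetylation is placed by acetyltransferases, which take the acetyl group from acetyl-CoA, and removed by deacetylases. H3K9/14ac marks active promoters and also active enhancers, many of which lie in the introns of the gene they act on or of a neighbour. A peak inside a gene can also mark a further promoter from which a shorter transcript starts. GLUT3 brings glucose into the cell, and glucose carbon can become acetyl-CoA by way of citrate.

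To tell internal promoters from other gene-body regions, starts annotated by RefSeq on GRCm38.p6 were placed in them, each given with 250 bases before and 50 after the start. Of the regions on chromosomes covered by that table, 545 (10.5%) held a start of their own host gene, 91 (1.76%) held a start of another gene and 4547 (87.7%) held none. The other 179 were not analysed for starts. The annotation used gives gene spans without exons, so exon and intron were not assigned. The windows of 5 internal starts are shown because they carry the contrasts reported below: Trat1, with the steepest fall of any gene-body region at an internal start (chr16:48772013-48772312, minus strand, 1 CG dinucleotide); Clcn3 (chr8:60954750-60955049, minus strand, 8 CG) and Cast (chr13:74734212-74734511, minus strand, 2 CG), with the strongest rises; Prdm10, in the tallest gene-body region (chr9:31280299-31280598, plus strand, 12 CG); and Foxp1, the gene with the most gene-body regions (chr6:99028249-99028548, minus strand, 44 CG). All are written 5′ to 3′ on the strand of the gene, and capitals mark CG dinucleotides. Trat1, Clcn3 and Cast were chosen for printing after their values were seen.
Trat1: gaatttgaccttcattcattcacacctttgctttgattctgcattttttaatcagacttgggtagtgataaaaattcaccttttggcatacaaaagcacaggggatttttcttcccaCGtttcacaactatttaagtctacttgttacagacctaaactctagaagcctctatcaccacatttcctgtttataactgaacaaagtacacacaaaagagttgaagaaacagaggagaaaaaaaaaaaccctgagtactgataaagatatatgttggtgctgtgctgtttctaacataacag
Clcn3: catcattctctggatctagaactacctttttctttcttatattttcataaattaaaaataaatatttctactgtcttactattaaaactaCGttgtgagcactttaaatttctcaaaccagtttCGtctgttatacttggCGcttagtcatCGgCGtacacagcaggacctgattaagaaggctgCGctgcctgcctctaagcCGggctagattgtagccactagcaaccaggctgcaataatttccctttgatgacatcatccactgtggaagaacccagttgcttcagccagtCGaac
Cast: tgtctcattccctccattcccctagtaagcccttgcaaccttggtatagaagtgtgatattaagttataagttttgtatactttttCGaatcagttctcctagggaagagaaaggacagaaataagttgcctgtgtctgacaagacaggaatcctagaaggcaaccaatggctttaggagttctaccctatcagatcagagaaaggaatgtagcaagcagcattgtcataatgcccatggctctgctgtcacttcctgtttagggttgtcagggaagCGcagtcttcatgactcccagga
Prdm10: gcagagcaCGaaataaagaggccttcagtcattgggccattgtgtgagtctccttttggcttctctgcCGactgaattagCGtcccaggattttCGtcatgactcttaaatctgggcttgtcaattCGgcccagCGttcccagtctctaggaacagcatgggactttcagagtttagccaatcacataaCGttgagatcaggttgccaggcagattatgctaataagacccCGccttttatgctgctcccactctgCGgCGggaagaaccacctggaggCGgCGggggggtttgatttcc
Foxp1: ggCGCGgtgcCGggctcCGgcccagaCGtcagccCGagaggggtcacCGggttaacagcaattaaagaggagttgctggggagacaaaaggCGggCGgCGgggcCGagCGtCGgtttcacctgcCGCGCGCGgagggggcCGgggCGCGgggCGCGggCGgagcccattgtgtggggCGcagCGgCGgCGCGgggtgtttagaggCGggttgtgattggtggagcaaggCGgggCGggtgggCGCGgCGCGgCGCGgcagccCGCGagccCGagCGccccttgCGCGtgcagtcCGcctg

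The 660 windows around own starts in gene-body regions held a median of 19 CG dinucleotides. The median was 7 over all 32851 windows of the table, 5 over the 2036 internal starts with no peak in any library and 23 over the 8703 starts in gene-end regions. The ETS motif CCGGAAGT, searched on both strands, was in 7.27% of the windows of own starts, 3.89% of all windows, 0.589% of internal starts without a peak and 10.5% of starts in gene-end regions. AP-1 (TGANTCA) was in 6.21% and 7.81% of the windows of own starts and of all windows, RUNX (TGTGGT) in 13.3% and 16.8%, RORE (AGGTCA) in 14.4% and 16.3%, and STAT (TTCNNNGAA) in 7.27% and 8.30%, each on both strands, with overlaps between motifs allowed. Internal starts with a shared peak were thus closer in CG count and in the ETS motif to gene-end starts than to internal starts without a peak. These shares describe letters in a window of 300 bases and were not tested.

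The gene-body regions had a median width of 2342 bp (quartiles 1486 and 3684 bp) and lay a median of 19.4 kb from the nearest gene end (quartiles 8.02 and 44.2 kb, at most 762 kb). They were spread over 2745 genes with a median span of 66.3 kb, against 17.2 kb over all 21887 protein-coding genes of the annotation. In 1655 of these genes (60.3%) there was a single region, and 218 genes held 5 or more. With genes divided into 4 equal parts along the direction of transcription, 29.2%, 30.8%, 23.4% and 16.7% of the regions that could be placed were in the parts from start to end. In 1915 regions (35.7%) the summits of all 6 libraries lay within 150 bp of each other. Th17 and T cell genes carried peaks: 6 of 7 Th17 markers and 6 of 6 T cell markers had a peak in all 6 libraries over the gene, with Il17f at 4 libraries. Of B cell markers 1 of 5 had one, of CD8 T and NK cell markers 2 of 5, of myeloid markers 3 of 6, and of erythroid markers 0 of 3. Ms4a1, Cd79b, Pax5, Cd8a, Ncr1, Lyz2, Adgre1, Mpo, Gata1 and Alas2 had no peak in any library.

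A height was assigned to each library in each region, as the number of fragments stacked at the tallest summit divided by the mean fragment coverage of that library, both recovered from the peak lists. Mean coverage was 3.99, 3.48 and 2.97 in WT libraries 1 to 3 and 1.85, 2.29 and 1.92 in KO libraries 1 to 3, with no overlap. The values of WT libraries 1 and 2 rest on pileup factors of 0.890 and 0.922, which were inferred because the deposited p and fold fit them; no label gives such a scaling, and without it their coverage would be 3.55 and 3.21. The factor cancels in a height over coverage but not in a number of fragments. Because the genotypes differ in depth, a height over coverage assumes equal total signal, and the authors' deposited table rests on another scaling: in 1211 regions with matching summits, its log2 fold changes were 0.31 lower than those of heights over coverage. The sign of small changes therefore depends on the scale, and both are given. Beyond depth, KO library 3 had 11 peaks on chromosome Y where the other libraries had 1 or 2. No gene-body region was on Y and 102 were on X. Without X, the counts and medians below moved little, with 1868 lower and 669 higher among 5024 entries of the authors' deposited table.

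Gene-body regions changed in both directions, and their balance relative to gene ends was shifted towards higher acetylation in KO at either scale, while the split into lower and higher itself depended on the scale. Only regions with a peak in all 6 libraries are compared. Gene-body regions stood lower, with a median mean height of 27.4 against 49.7 at gene ends, and coverage was lower in KO libraries. Low regions that fell in KO could leave the set more readily than tall ones. The part of this in the shift was not tested. In the authors' deposited table, which gives a log2 fold change of KO over WT and a false discovery rate (FDR) for the best window of each tested region, 5119 of the 5362 regions had an entry. Of these, 1915 (37.4%) were lower and 675 (13.2%) higher at an FDR under 0.05, against 46.3% lower and 12.7% higher among all 40909 regions of the authors' deposited table. The median log2 fold change was -0.50 in gene bodies, -0.62 over all tested regions, -0.58 between genes and -0.74 at gene ends, with 57.9% lower and 4.74% higher, by the authors' deposited table. Between genes, 43.0% were lower and 11.3% higher there, nearer to gene bodies than gene ends were. On heights over coverage, tested by limma over all 20108 shared regions with Benjamini-Hochberg adjustment at 0.05, 738 gene-body regions (13.8%) were lower and 1449 (27.0%) higher in KO, where 14.8% and 19.7% of all shared regions were lower and higher. At gene ends the same fit called 13.2% lower and 12.4% higher, and between genes 19.5% lower and 23.6% higher. A larger share of higher calls than at gene ends was thus not particular to gene bodies. With heights moved to the scale of the authors' deposited table, limma called 1886 gene-body regions lower and 695 higher, where 43.1% and 8.22% of all shared regions were lower and higher. Heights of the genotypes did not overlap in 951 gene-body regions that were lower and 1762 that were higher in KO, 17.7% and 32.9% of them, where 19% and 25.7% of all shared regions did so.

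**Figure D1:**
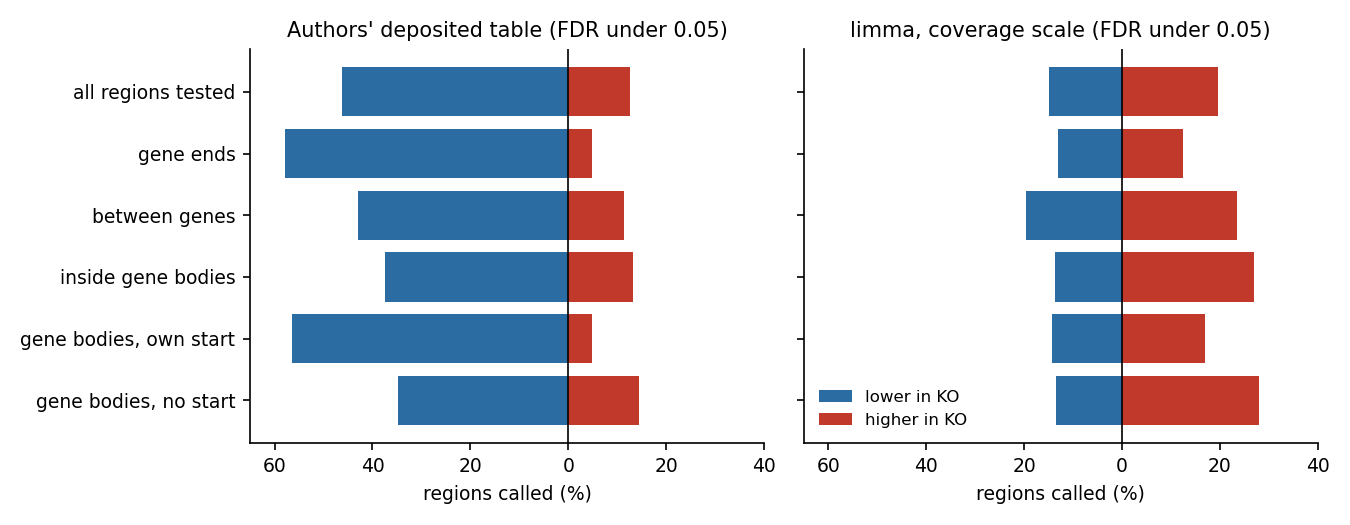
Share of regions called lower (left of 0) and higher (right of 0) in KO at an FDR under 0.05, in the authors' deposited table and by limma on heights over coverage; all regions tested are 40909 on the left and 20108 on the right. Gene-body regions without an annotated start have the longest bars to the right in both panels, and those with an own start have 56.4% lower on the left, where gene ends have 57.9%.

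A comparison that does not depend on library scaling is the gap between classes within a library. It still covers only regions with a peak in all 6 libraries, which differ in depth. The median height over coverage of gene-body regions was 25.8, 26.1 and 25.6 in WT and 28.1, 28.8 and 27.6 in KO, with no overlap, a difference of 0.12 on the log2 scale at coverage scaling that reversed to -0.19 at the scale of the authors' deposited table. The gap in median log2 height between gene-body and gene-end regions was -0.84, -1.02 and -1.01 in WT and -0.84, -0.75 and -0.83 in KO. Gene-body regions thus stood lower than gene ends in every library, and by 0.15 less in KO (-0.96 ± 0.10 against -0.81 ± 0.05, SD, n = 3 per genotype; two-sided exact permutation p = 0.1, the smallest this design allows). WT library 1 and KO library 1 differed by only a small margin, and without WT library 1 the difference was 0.21. Against regions between genes, the gap of gene-body regions was 0.00, 0.02 and 0.00 in WT and 0.12, 0.14 and 0.08 in KO (difference 0.11, two-sided exact permutation p = 0.1, n = 3 per genotype). Fold enrichment over background, the authors' own value for each peak, had a median of 5.17, 5.02 and 5.33 in WT and 5.73, 5.60 and 5.78 in KO over gene-body regions. The difference in the gap to gene ends was 0.18 on that measure.

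**Figure D2:**
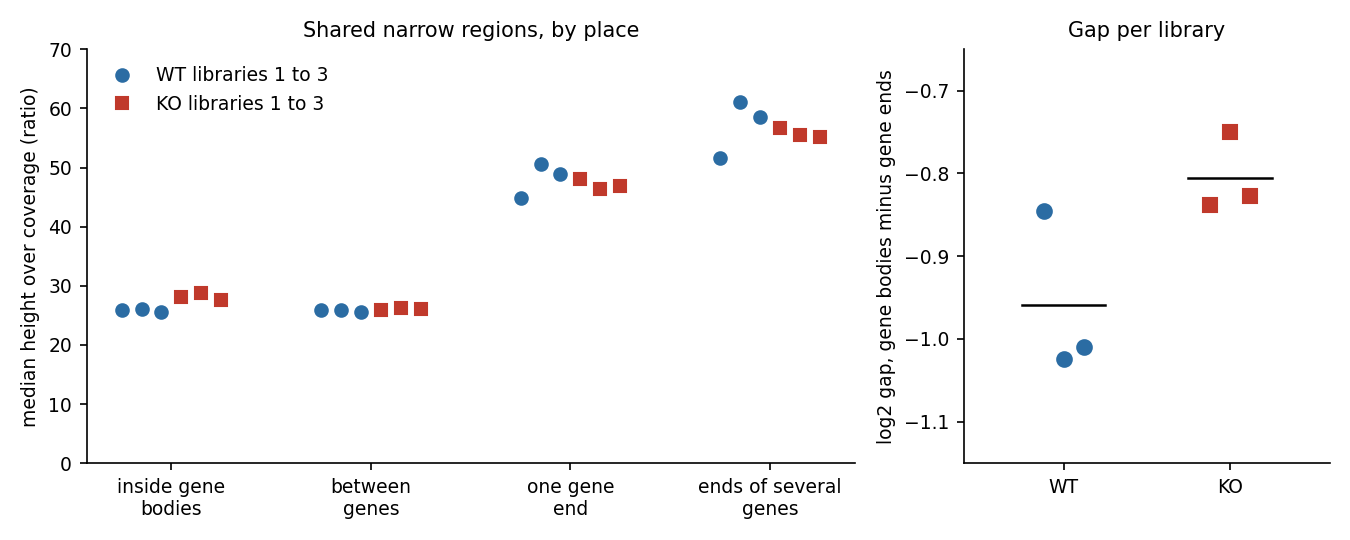
Left, median height over coverage of shared narrow regions by place, 1 point per library (WT circles, KO squares). Right, the gap in median log2 height between gene-body and gene-end regions per library, with genotype means as lines; the KO points lie between -0.84 and -0.75 and the WT points between -1.02 and -0.84, on an axis that does not start at 0.

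Gene ends are taller than gene bodies, so the classes were also set side by side at like height. With all shared narrow regions sorted by mean height into 10 bins of equal size, the median change of gene-body regions was above that of gene-end regions in 10 of 10 bins in the authors' deposited table and in 9 of 10 by limma. In the lowest bin the medians were -0.28 in gene bodies and -0.49 at gene ends, and in the tallest bin -0.72 and -0.73, in the authors' deposited table. The tallest bin was the exception by limma, with 0.10 in gene bodies and 0.11 at gene ends. Averaged over bins within each library, the gap between the classes was still 0.13 higher in KO than in WT (two-sided exact permutation p = 0.1, n = 3 per genotype).

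In the authors' deposited table, gene-body regions that held a start of their own gene had shares of lower and higher calls nearer to those of gene ends than regions without a start had. By limma at coverage scaling this held for the higher calls, while the shares of lower calls were close to each other in all 3 groups. The 545 regions with an own start had a median mean height of 44.8, against 26.0 in the 4547 with no start and 49.7 at gene ends. In the authors' deposited table, 56.4% of regions with an own start were lower and 4.78% higher, with a median log2 fold change of -0.74, equal to that of gene ends. Of regions with no start, 34.9% were lower and 14.4% higher, with a median of -0.46, in the authors' deposited table. By limma at coverage scaling, 14.3% of regions with an own start were lower and 16.9% higher, and 13.5% and 28.1% of those with no start, where gene ends had 13.2% and 12.4%. At the scale of the authors' deposited table, limma called 46.4% lower and 4.04% higher with an own start. It called 33.7% and 14.1% with no start, and 48.5% and 3.55% at gene ends. Within libraries, regions with an own start lay 0.19, 0.18 and 0.19 below gene ends on the log2 scale in WT and 0.18, 0.17 and 0.16 below in KO. The gap between regions without and with an own start was 0.15 higher in KO, but the genotypes overlapped (two-sided exact permutation p = 0.2, n = 3 per genotype). Height, which differs between these groups, was not matched in this comparison.

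The share of lower calls was highest close to a start in the authors' deposited table and by limma at its scale, but not by limma at coverage scaling. Distance was measured to the starts of the host gene, or of the first listed where there were several. Regions whose host had no start in the annotation of starts, or starts on both strands, were left out. Among the 624 gene-body regions centred within 2 kb of a start of their host, the authors' deposited table has 53.2% lower and 4.69% higher. From 2 to 5 kb away the shares were already 32.6% and 13.2%, and beyond 50 kb they were 33.7% and 17.0%, in the authors' deposited table. At coverage scaling, limma called 13.8% lower within 2 kb, 13.6% from 2 to 5 kb, 14.9% from 5 to 10 kb and 13.5% beyond 50 kb. Its share of higher calls was 16.7% within 2 kb and 25.6% to 32.0% in the bins beyond. At the scale of the authors' deposited table, limma called 43.8% lower within 2 kb and 30.9% to 33.5% in the bins beyond. The median mean height was 42.3 within 2 kb and 23.3 to 27.6 in the bins beyond, and height was not matched. The shares differed less by position along the gene. In the 4 parts from start to end, 37.1%, 37.9%, 35.0% and 36.2% were lower in the authors' deposited table. Among regions with an own start, grouped by the highest CG count of their windows, the share lower was 47.7% at 0 to 9 CG, 60.3% at 10 to 19, 64.9% at 20 to 29 and 51.9% at 30 or more, in the authors' deposited table. The order was another by limma at coverage scaling, with 16.3%, 19.9%, 11.2% and 9.16% lower in the same groups. With heights moved to the scale of the authors' deposited table, limma called 38.0%, 52.3%, 53.0% and 41.2% lower, in the same order as that table.

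**Figure D3:**
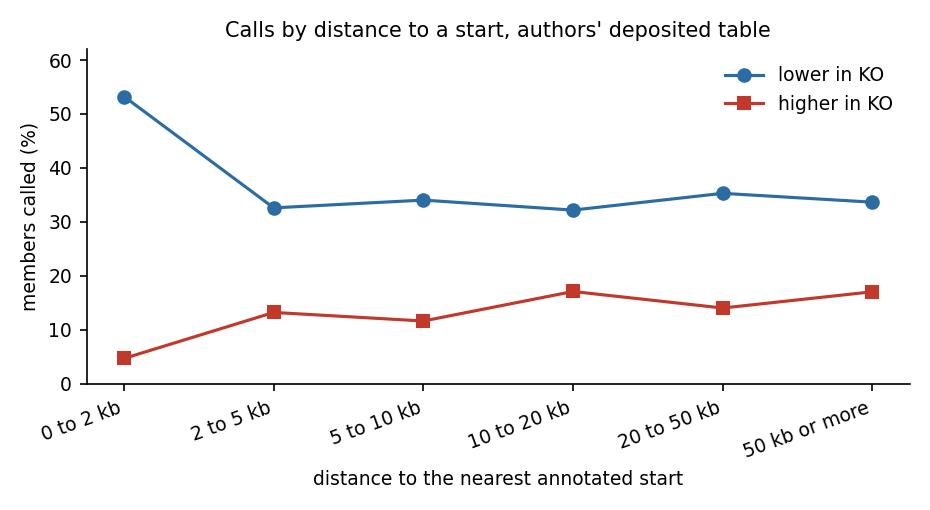
Share of gene-body regions called lower (circles) and higher (squares) in KO in the authors' deposited table, by distance from the region's centre to the nearest annotated start of its host gene. Regions whose host had no start to measure from, or starts on both strands, are left out. The share lower is 53.2% within 2 kb and between 32.2% and 35.3% in every bin beyond. Limma did not show this step at coverage scaling (13.8% within 2 kb). It did at the scale of the authors' deposited table (43.8% within 2 kb, 30.9% to 33.5% beyond).

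Peaks inside these regions were shorter and more broken in KO libraries. A median of 1804, 1633 and 1625.5 bp of each region was covered by peaks in WT, and 1373, 1514 and 1424 bp in KO. Regions were split into several peaks in 22.7%, 24.3% and 25.5% of cases in WT and in 28.5%, 26.2% and 29.4% in KO. Both measures separated the genotypes (two-sided exact permutation p = 0.1, n = 3 per genotype). Lower coverage in KO moves with both, and its part in them was not tested.

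Slc2a3, the targeted gene, was examined first among single genes and held 3 gene-body regions. At chromosome 6, 122740318 to 122743445, height over coverage was 31.3, 37.3 and 39.7 in WT and 15.1, 18.8 and 21.4 in KO. The genotypes did not overlap, and the ratio of KO to WT means was 0.51 (limma log2 difference -0.98, SE 0.17, Benjamini-Hochberg adjusted p = 6.64e-05; log2 fold change -1.97, FDR 3.04e-13 in the authors' deposited table). At 122754786 to 122758613 the region had heights of 26.8, 23.0 and 29.3 in WT and 18.4, 23.6 and 19.8 in KO, which overlapped. It was lower in the authors' deposited table (-0.92, FDR 0.00134) but did not pass by limma (-0.36, adjusted p = 0.11). At 122762344 to 122765817 the values were 35.3, 33.6 and 35.0 in WT and 25.4, 26.6 and 31.2 in KO. It passed in the authors' deposited table (log2 fold change -1.97, FDR 4.7e-12) and its limma difference of -0.33 did not (adjusted p = 0.0991). The best window of a tested region need not be at the summit, and the scale of the authors' deposited table is 0.31 lower. The part of each in the larger tabulated falls was not tested. Which part of Slc2a3 is floxed is not given in the labels.

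The steepest falls with non-overlapping heights were in Uggt2, Rapgef4, Ptprk, Trat1, Ebf1, Adarb2, Gne and Plxnc1, with log2 fold changes from -2.97 to -2.34 in the authors' deposited table. Each also passed by limma at coverage scaling. Trat1, which encodes an adaptor protein that associates with the T cell receptor complex, had the lowest ratio of KO to WT height of these. The region around its internal start (chromosome 16, 48768608 to 48772797) had 49.4, 45.4 and 37.4 in WT and 10.8, 6.99 and 8.85 in KO. The ratio of KO to WT means was 0.20 (limma log2 difference -2.32, SE 0.19, adjusted p = 8.28e-10). Every WT library was far above every KO library. In Plxnc1, a semaphorin receptor gene, a region 37.2 kb from the gene end had 62.9, 72.6 and 62.6 in WT and 25.9, 18.8 and 24.0 in KO. In Ptprk, a receptor tyrosine phosphatase gene, heights were 48.6, 55.4 and 58.6 in WT and 20.5, 16.2 and 17.7 in KO. Uggt2, which encodes a glucosyltransferase of glycoprotein folding control, had the lowest log2 fold change, -2.97 in the authors' deposited table, and heights of 88.2, 83.3 and 86.2 in WT and 44.3, 43.2 and 30.2 in KO.

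The strongest rises were in Nrp2, Shf, Carhsp1, Sh3bp4, Sox6, Lrch1, Ssh2 and Bbs9, with log2 fold changes from 2.8 to 2.26 in the authors' deposited table, and each passed by limma. In Carhsp1, a gene for a calcium-regulated RNA-binding protein, the region at chromosome 16, 8665176 to 8668814 had heights of 29.1, 12.6 and 12.8 in WT and 194, 190 and 193 in KO. WT library 1 was above the other WT libraries, and the KO mean was 10.6 times the WT mean (limma log2 difference 3.52, SE 0.19, adjusted p = 1.14e-12). Nrp2 encodes neuropilin 2, a receptor for semaphorins and VEGF. Its region at chromosome 1, 62734153 to 62740096 had 15.8, 13.2 and 9.43 in WT and 70.3, 78.2 and 79.7 in KO, a ratio of means of 5.94. Sox6, a transcription factor gene, had 29.6, 27.6 and 33.3 in WT and 112, 100 and 65.1 in KO, with KO library 3 below the other KO libraries. Sh3bp4, a regulator of receptor endocytosis, had 8.77, 10.3 and 9.09 in WT and 47.0, 45.4 and 38.5 in KO. These 16 regions were named for the size of their change, so their values are a description.

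**Figure D4:**
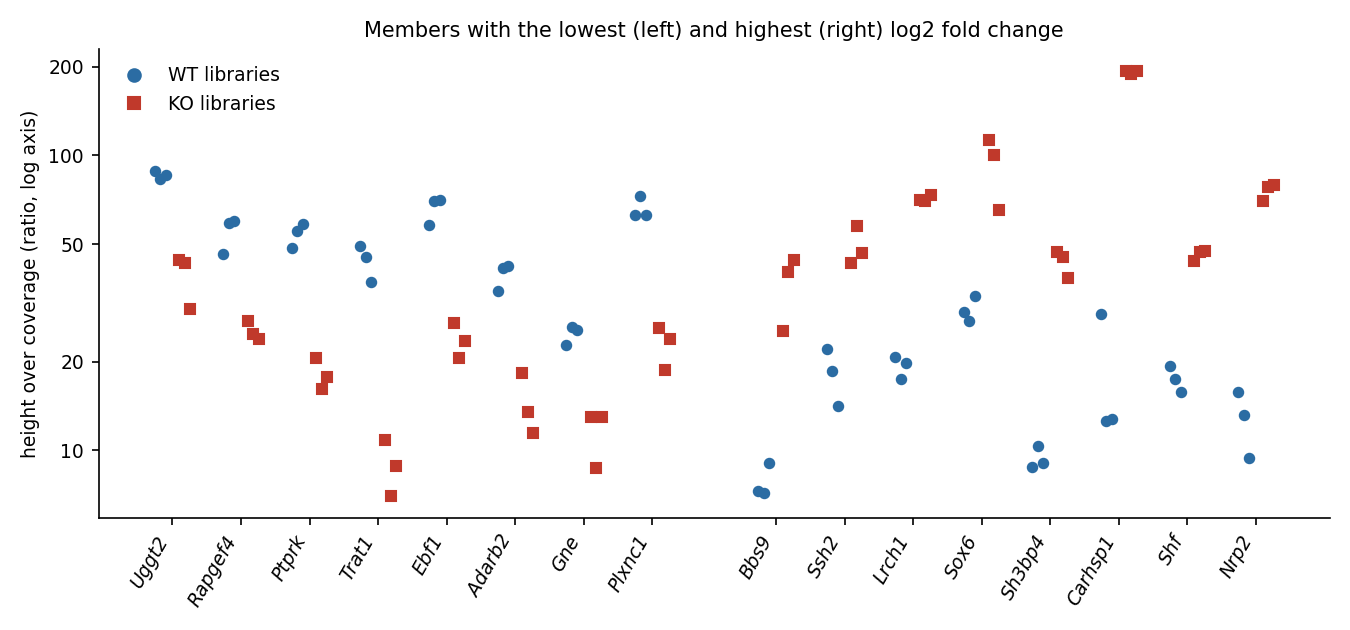
Height over coverage (log axis) in each library for the 8 gene-body regions with the lowest and the 8 with the highest log2 fold change in the authors' deposited table among those passing its FDR with non-overlapping heights, 1 per gene. WT libraries are circles and KO libraries squares; Trat1 falls to 0.20 of its WT mean and Carhsp1 rises 10.6 times.

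Trat1, whose window holds 1 CG and 1 match each to the RUNX and RORE letters, was the region at an own start among the 8 steepest falls. The strongest rises at an own start, in Clcn3 and Cast, were below those of the 8 strongest rises in gene bodies. Clcn3, a chloride and proton exchanger of endosomes, had 25.6, 14.6 and 17.8 in WT and 63.2, 60.3 and 57.8 in KO around its start (log2 fold change 1.40, FDR 2.01e-09 in the authors' deposited table). Cast, which encodes calpastatin, the inhibitor of calpain proteases, had 23.6, 32.2 and 27.3 in WT and 78.9, 75.5 and 74.5 in KO (1.27, FDR 1.69e-08 in the authors' deposited table). Starts with more CG also changed: Efcab8 (19 CG) and Cdc14b (18 CG) were lower (-2.30 and -2.09 in the authors' deposited table) and Tmcc3 (31 CG) and Mier1 (49 CG) were higher (1.19 and 1.16 in the authors' deposited table), each also by limma. These 4 were named after their values were seen. The internal start of Foxp1 (44 CG) had 66.2, 71.2 and 77.1 in WT and 81.1, 79.9 and 85.4 in KO and passed neither test (-0.49, FDR 0.453 in the authors' deposited table; limma 0.20, adjusted p = 0.166).

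The tallest gene-body regions changed by at most 0.51 on the log2 scale at their summits, by limma at coverage scaling. They were in Prdm10, Pfdn4, Tmem29 with Apex2, Sri, Ubxn8 and Selp, and mean heights ranged from 174 to 280 in WT. In Prdm10, a zinc finger gene of the PRDM family, the region around the internal start had 261, 284 and 295 in WT and 393, 361 and 349 in KO. Its limma difference was 0.39 (adjusted p = 0.000826), while its best window was lower by the authors' deposited table (-1.47, FDR 1.44e-06). Of the 21 windows of that tested region, 3 went up and 5 down. Pfdn4, a prefoldin subunit gene, was likewise higher by limma (0.30, adjusted p = 0.0114) and lower in the authors' deposited table (-0.83, FDR 0.00261). Selp, the gene of P-selectin, had 173, 177 and 171 in WT and 255, 250 and 237 in KO and was higher by limma (0.51, adjusted p = 5.43e-05). In the authors' deposited table its tested region of largest overlap did not pass (0.42, FDR 0.234), and another that overlaps it was higher (0.68, FDR 0.00814). Sri and Ubxn8 had falls by the authors' deposited table (-1.11 and -0.87), with limma differences of 0.06 and 0.07 (adjusted p = 0.652 and 0.594). The region in Tmem29 and Apex2 is on X, and KO library 3 had 179 where the other KO libraries had 275 and 265.

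Regions of 1 gene tended to move together when close. Among 2648 pairs of neighbouring gene-body regions in the same gene, the correlation of their limma log2 differences was 0.40, and 0.51, 0.29 and 0.21 for pairs under 10 kb, 10 to 50 kb and 50 kb or more apart (Pearson, across pairs that share libraries, as a description). Of the pairs under 10 kb with both regions called by limma, 343 of 375 went the same way, as did 172 of 210 pairs at 10 to 50 kb and 41 of 63 at 50 kb or more. Limma called 738 gene-body regions down and 1449 up, so unrelated pairs of called regions would also often share a direction. An excess over unrelated pairs was not tested. Of 497 genes with several regions called in the authors' deposited table, 285 had only lower, 70 only higher and 142 both. Falls outnumbered rises among its called gene-body regions, 1915 to 675. Whether genes with a single direction exceeded what that imbalance gives was not tested.

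For the genes with most regions, counts are to be read against 37.4% lower and 13.2% higher of all gene-body regions in the authors' deposited table, and 13.8% and 27.0% by limma at coverage scaling. Foxp1, a forkhead factor that keeps T cells quiescent, held the most gene-body regions, 29, of which 9 were lower and 1 higher among 26 in the authors' deposited table, while limma called 3 lower and 6 higher. Etv6, an ETS family repressor, held 19, with 8 lower and 0 higher of 18 by the authors' deposited table, and 4 lower and 3 higher by limma. Inpp4b, a phosphatase of phosphoinositides, held 17, with 10 lower, 0 higher and a median log2 fold change of -1.01 in the authors' deposited table. At coverage scaling limma still called 8 of its regions lower and 1 higher. Maml2, a coactivator of Notch, also held 17, with 2 lower, 0 higher and a median of -0.02 in the authors' deposited table, and limma called 1 lower and 8 higher. Dock10, a guanine nucleotide exchange factor for small GTPases, had 10 lower and 1 higher of 14 in the authors' deposited table, and 5 lower and 1 higher by limma. The region at its internal start had 70.7, 82.1 and 71.0 in WT and 36.2, 27.1 and 40.6 in KO. Wwox had 7 lower and 1 higher of 17 in the authors' deposited table, and 2 lower and 2 higher by limma.

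Among genes with many regions, 1700025G04Rik and Smad3 were picked after their values were seen because they went the other way. In 1700025G04Rik, 7 of 11 regions were higher and 1 lower in the authors' deposited table, and limma called 7 higher and 0 lower. Its region at chromosome 1, 152023656 to 152025935 had 10.8, 7.75 and 6.06 in WT and 61.1, 77.3 and 64.1 in KO (log2 fold change 2.84 in the authors' deposited table). Smad3, which carries signals of the TGF-beta receptor into the nucleus, had 2 higher and 0 lower of 11 in the authors' deposited table, and 6 higher and 0 lower by limma. Its called region at chromosome 9, 63695598 to 63699520, had 13.5, 14.1 and 12.5 in WT and 24.3, 24.5 and 20.3 in KO.

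**Figure D5:**
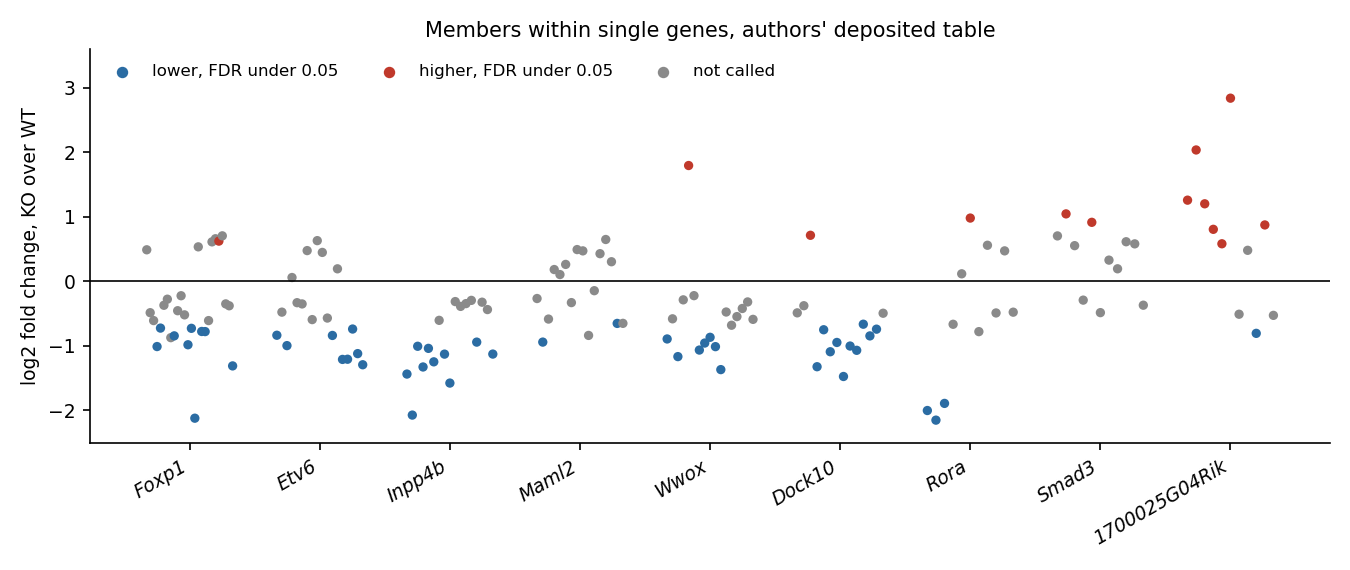
Log2 fold change of KO over WT in the authors' deposited table for each gene-body region of 9 genes, in order of position within each gene; colours give the call at an FDR under 0.05. Inpp4b and Dock10 lie mostly below 0, Maml2 is spread around 0, and 1700025G04Rik is mostly above it.

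The genes of the Th17 programme were described next, from a list of 29 genes of which 12 held 61 gene-body regions. Of the 60 with an entry, 14 (23.3%) were lower and 7 (11.7%) higher, with a median log2 fold change of -0.42, in the authors' deposited table, against 37.4% and 13.2% and a median of -0.50 over gene-body regions. Limma called 7 (11.5%) lower and 13 (21.3%) higher of the 61, against 13.8% and 27.0%. The same shares over all gene-body regions apply to each list below, and no difference of a list from them was tested. Il17a, Il17f and Cd4 held none. Rora, which encodes a nuclear receptor of the Th17 programme, held 11, and they did not move as a block. The region at chromosome 9, 69031846 to 69038583 had 56.9, 61.2 and 48.8 in WT and 23.8, 26.6 and 31.2 in KO (limma -1.03, adjusted p = 4.51e-06; -2.0 in the authors' deposited table). The next, at 69161398 to 69166642, had 28.8, 34.7 and 30.3 in WT and 17.8, 11.4 and 9.90 in KO (limma -1.31, adjusted p = 1.12e-05; -2.15 in the authors' deposited table). Another, at 69287153 to 69293729, was lower by both measures (limma -0.40, adjusted p = 0.0285; -1.89 in the authors' deposited table). Beyond it, the region at 69317017 to 69321365 rose from 29.3, 16.9 and 17.8 in WT to 46.5, 39.7 and 42.2 in KO (limma 1.05, adjusted p = 5.43e-05; 0.98 in the authors' deposited table). The other 7 regions passed neither test, though those at 69333710 and 69345872 each overlapped another entry that was lower (-1.16 and -0.74 in the authors' deposited table).

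Il23r, the receptor subunit for interleukin 23, held 4 gene-body regions. The neighbouring regions at chromosome 6, 67480048 to 67483093 and 67483383 to 67485514 fell, from 41.9, 38.8 and 40.1 in WT to 19.5, 22.7 and 20.8 in KO and from 55.7, 49.1 and 56.9 to 34.1, 25.8 and 29.7. Their log2 fold changes were -1.69 and -1.56 in the authors' deposited table, and limma gave -0.94 and -0.86 (adjusted p = 2.67e-05 and 3.73e-05). The region at 67457081 to 67460957, with 56.7, 46.8 and 43.4 in WT and 50.8, 55.5 and 69.3 in KO, passed neither test. Stat3, the factor that relays interleukin 6 and interleukin 23, held 3, and 2 of them rose. At chromosome 11, 100897448 to 100899248 heights were 14.8, 21.0 and 18.9 in WT and 32.4, 45.4 and 34.4 in KO (limma 1.04, adjusted p = 4.7e-05; 1.03 in the authors' deposited table).

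T cell receptor genes held regions of both directions. Of 54 listed regions with an entry, 17 (31.5%) were lower and 8 (14.8%) higher, with a median of -0.44, by the authors' deposited table, and limma called 11 (19.3%) lower and 18 (31.6%) higher. The region in Cd247, the zeta chain of the receptor complex, fell from 49.4, 57.4 and 57.2 to 28.1, 29.7 and 33.3 (-2.25 in the authors' deposited table). Themis, a signalling protein of developing T cells, fell from 38.4, 44.2 and 51.9 to 22.2, 25.8 and 25.5 (-1.93 in the authors' deposited table). Prkcq, the kinase PKC-theta, rose in its region at chromosome 2, 11282299 to 11284552 from 14.3, 19.2 and 25.6 to 35.1, 39.7 and 31.8 (1.39 in the authors' deposited table). All 3 also passed by limma in the same direction.

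Costimulatory and coinhibitory genes had 8 lower (40%) and 1 higher (5%) of 20 regions in the authors' deposited table, and 4 lower and 5 higher of 22 by limma. In Icos, an inducible costimulator, heights were 52.9, 48.0 and 48.1 in WT and 20.5, 28.4 and 28.1 in KO (-2.22 in the authors' deposited table). Pdcd1, the gene of PD-1, went from 32.8, 36.8 and 36.4 to 24.9, 21.4 and 20.8 (-1.36 in the authors' deposited table). Cytokine receptor and STAT genes had 10 lower (45.5%) and 3 higher (13.6%) of 22 in the authors' deposited table, near the 46.3% and 12.7% of all regions tested there, but 1 lower and 8 higher by limma. Stat4, the factor downstream of interleukin 12, passed both ways (-1.64 in the authors' deposited table; limma -0.89, adjusted p = 4.53e-05). The regions named in Il2rb and Jak1, which the authors' deposited table gives as lower at -1.44 and -1.22, had limma differences of -0.06 and -0.10 (adjusted p = 0.767 and 0.548). Another region in Jak1, at chromosome 4, 101179386 to 101180911, was higher in the authors' deposited table (0.96, FDR 0.00147). It was picked after its values were seen.

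AP-1, NF-kB and stimulation-induced factors had 7 lower (58.3%) and 1 higher (8.33%) of 12 regions in the authors' deposited table, with a median of -0.75, and 4 lower and 0 higher by limma. Nfkb1 went from 35.4, 45.7 and 47.5 in WT to 25.4, 21.0 and 21.9 in KO, and Nr4a2, an orphan nuclear receptor gene induced by stimulation, from 79.5, 79.0 and 93.3 to 49.2, 44.5 and 54.7. Homing and adhesion genes had 17 lower (60.7%) and 2 higher (7.14%) of 28 in the authors' deposited table, with a median of -0.75, and 8 lower and 7 higher by limma. Cxcr5, a chemokine receptor gene, fell from 42.4, 43.4 and 40.4 to 18.4, 21.8 and 23.4 (-1.67 in the authors' deposited table), and Itgae, the integrin alpha E gene, from 27.3, 34.2 and 27.9 to 12.4, 11.4 and 19.8 (-1.33 in the authors' deposited table).

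Lymphocyte transcription factor genes held 101 regions in 24 genes, with 33 lower (35.5%) and 9 higher (9.68%) of 93 in the authors' deposited table, and 10 lower (9.90%) and 33 higher (32.7%) by limma. Foxp1, described above, accounted for 29 of the 101. Ebf1, known for its role in B cells, held regions of either direction: the region named above fell from 58.2, 70.3 and 70.7 to 27.0, 20.5 and 23.4, and the region at chromosome 11, 44722184 to 44726882, named after its values were seen, rose from 17.3, 10.9 and 11.8 to 39.5, 42.4 and 43.7. Zbtb16, the gene of the zinc finger factor PLZF, rose from 15.3, 12.1 and 12.1 to 40.5, 45.9 and 33.9 (1.92 in the authors' deposited table). The B cell, CD8 T and NK cell and erythroid lists held no gene-body region, and the myeloid list held 5, with 2 lower and 0 higher of 4 in the authors' deposited table. Spi1 and F13a1, named from the myeloid list, had heights between 11 and 24.2 in every library, and limma called 0 of the 5.

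Genes of glucose uptake and glycolysis had 10 lower (45.5%) and 3 higher (13.6%) of 22 regions in the authors' deposited table, with a median of -0.48, and 2 lower and 8 higher of 24 by limma. The shares in the authors' deposited table are near the 46.3% and 12.7% of all regions tested there. Slc2a9, which encodes the urate and hexose transporter GLUT9, rose at chromosome 5, 38492291 to 38495161 from 14.3, 12.3 and 11.4 to 34.1, 29.3 and 41.1 (1.27 in the authors' deposited table; limma 1.45, adjusted p = 5.98e-07). Another region in Slc2a9, at 38479213 to 38481120, was lower in the authors' deposited table (-1.05, FDR 7.98e-06). It was picked after its values were seen. The glucose transporter gene Slc2a1 and the hexokinase gene Hk1 were looked at after their values were seen. Slc2a1 was lower in the authors' deposited table (-0.95) while its height rose from 78.5, 82.7 and 72.4 to 98.9, 113 and 96.9 (limma 0.40, adjusted p = 0.00523). Hk1 rose from 8.27, 9.19 and 8.75 to 18.9, 15.7 and 26.6 (1.58 in the authors' deposited table).

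Genes that supply acetyl-CoA or set and remove acetylation had 5 lower (26.3%) and 1 higher (5.26%) of 19 regions in the authors' deposited table, and 4 lower and 4 higher of 20 by limma. Hdac2, a deacetylase gene, fell from 55.7, 53.7 and 57.9 to 35.1, 28.8 and 32.8 (-1.43 in the authors' deposited table). Kat6b, an acetyltransferase gene, fell from 63.4, 74.4 and 56.6 to 40, 39.3 and 39.6 (-1.08 in the authors' deposited table). Hdac9 rose from 17.8, 16.9 and 18.5 to 41.1, 48.5 and 50.0 (1.34 in the authors' deposited table). Phosphoinositide 3-kinase and mTOR pathway genes had 17 lower (37.8%) and 2 higher (4.44%) of 45 in the authors' deposited table, and 11 lower and 8 higher by limma, and Inpp4b accounted for 17 of the 45. Its strongest region, at chromosome 8, 81495671 to 81499532, fell from 42.6, 42.5 and 46.8 to 14.6, 17.9 and 12.5 (-2.07 in the authors' deposited table). Of the housekeeping list only Ywhaz held a region, with 72.5, 81.8 and 81.8 in WT and 77.8, 73.8 and 80.2 in KO, which overlapped. It was lower in the authors' deposited table (-0.72, FDR 0.014) and at -0.02 by limma (adjusted p = 0.887).

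Hairpins of 12 microRNAs lay at least in part inside 12 gene-body regions. The mature forms of Mir199a-2, which lies within Dnm3, the gene of a dynamin, are shown because their region rose; capitals mark the seed, bases 2 to 8, from RefSeq on GRCm38.p6. The pair lies on the plus strand of chromosome 1, at 162217844 to 162217866 (5p) and 162217883 to 162217904 (3p).
miR-199a-5p: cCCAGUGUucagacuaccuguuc
miR-199a-3p: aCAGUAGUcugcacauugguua
The region around them had heights of 25.8, 21.0 and 21.9 in WT and 71.4, 64.2 and 44.8 in KO, with no overlap (log2 fold change 1.13, FDR 6.89e-07 in the authors' deposited table; limma 1.37). The region in Smurf1, a ubiquitin ligase gene, that holds Mir7039 rose from 28.3, 27.9 and 19.5 to 67.6, 70.3 and 56.3 (1.36 in the authors' deposited table). The region in Lck, the kinase that starts T cell receptor signalling, that holds Mir8119 had 29.6, 45.9 and 41.8 in WT and 40.5, 49.8 and 38.0 in KO and passed neither test. Hairpin regions in Napepld, Focad and Gse1 fell by the authors' deposited table (-1.06, -1.05 and -1.07, FDR 0.0133, 0.000313 and 0.000607). Limma called none of them (-0.30, -0.13 and 0.19, adjusted p = 0.149, 0.512 and 0.313). The region in Parp1 rose by both measures (0.64, FDR 0.0376, and limma 0.55, adjusted p = 0.0128). Slc43a2 and Cfap43 rose by limma only (0.52 and 0.79, adjusted p = 0.00292 and 0.00668). The mark at a hairpin does not measure the microRNA itself.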

How the data were processed

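Peak lists of 6 ChIP libraries and 1 differential table were analysed. Per the submitters' processing notes, MACS2 2.2.6, Bowtie2 2.3.5.1, cutadapt 2.8, bcl2fastq 2.20.0.422 and deepTools 3.3.2 were used, with the builds mm10 and GRCm38. The program behind the differential table was not given in the sources used here. Peaks in the deposited lists, called per library, have a score, a linear ratio (fold enrichment), a -log10 p-value and a -log10 q-value. The authors' deposited table holds counts of windows per region, a p-value, an FDR and a log2 fold change of the best 150 bp window; the spans of 24128 regions were listed, and the other spans were rebuilt from the single-read lists.

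Summit fragments and mean coverage were solved from fold and p of each peak, recovering 100% of heights within 0.01 of the deposited -log10 p. Coverage ranged from 1.85 to 3.99 and the lowest summit of any gene-body region was 11 fragments, so single heights carry counting error beyond the spread shown. A region's table value is that of the tested region with the largest overlap. Log2 heights over coverage were fitted with limma 3.58.1 (R 4.3.3) with a trend over 20108 regions, with Benjamini-Hochberg adjustment at 0.05. Tested on simulated data over 20108 regions, 98.5% of 200 2-fold changes were called. Library measures were tested by exact permutation, two-sided. Gene spans are those of GRCm38.p6 (21887 protein-coding genes), and all 335 entries of 15 gene lists matched.

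Named regions are those in Slc2a3, Rora, Stat3 and Il23r, the genes with most regions, the 6 tallest regions, the 8 lowest and 8 highest with non-overlapping heights, up to 3 per list by lowest FDR, and those nearest the limits. Members, lists and rules were chosen with earlier results of these data known.

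Same-numbered WT and KO libraries did not deviate together (correlations of deviations 0.0117, -0.0113 and 0.0376), so the numbers were not taken as pairs. Sequences are RefSeq windows, which cover no start on chromosome 18, and sequences at other summits and motifs there were not analysed here. Alternatives were scaling, thresholds, peak lists, limits of the rule and left-out libraries. The member just inside the width limit is not reported here.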

Additional observations from a re-analysis of the deposited data

How the results depend on the processing

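The number of gene-body regions stayed between 4259 and 5748 under the 10 alternatives to its rule, with 5467 to 5748 when a peak was required in the other 5 libraries only. Of the counts from the authors' deposited table, those with a log2 fold change of at least 1 in size came to 902 lower and 269 higher, and at coverage scaling with the same limit to 396 lower and 581 higher. The limma counts were 1886 lower and 695 higher at the scale of the authors' deposited table, and 3 lower and 31 higher on log2 fold enrichment; the cause of the small number of calls was not tested. Leaving out each library in turn gave 548 to 728 lower and 1155 to 1372 higher. With the replicate block, 728 were lower and 1432 higher, and the same-numbered libraries share only a number.

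The library median of gene-body heights, higher in KO by 0.12 at coverage scaling, reversed to -0.66 with unscaled heights and to -0.19 at the scale of the authors' deposited table, and ranged from 0.11 to 0.14 when single libraries were left out. The difference in the gap between gene bodies and gene ends kept its direction under the 10 alternatives run. It was 0.11 with regions between genes in place of gene ends, and 0.12 to 0.21 under the others. With single libraries left out it was also 0.12 to 0.21 (exact permutation p = 0.2 with 2 against 3). The named regions counted here are 73 with an entry in the authors' deposited table. They leave out regions named only for the genes with most regions or after their values were seen. Of the 73, 54 kept direction and call by limma, 7 were no longer called, 1 was newly called and 6 more differed without a call in either. The other 5 reversed: Ap5b1 (0.10), Pfdn4 (0.30), Prdm10 (0.39), Sri (0.060) and Ubxn8 (0.070). Reversals also occurred among the regions left out, which were not counted. In Etv6 at 134042950 the authors' deposited table has -0.84 (FDR 0.0142) and limma 0.52 (adjusted p = 0.00887). With the overlapping region of lowest FDR, 1 of the 73 regions reversed, in Rora at 69345872 (-0.74), and 2 were newly called, in Selp (0.68) and in Rora at 69333710 (-1.16). Depth limits low regions most: the lowest summits held 11 to 21 fragments per library.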
